A study of Mus musculus with 8 samples.

Results

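Dual-specificity phosphatases and Sprouty proteins, which act as brakes on mitogen-activated protein (MAP) kinase signalling, were examined in mouse optic nerves kept in culture with lithium. The 10 genes were Dusp1, Dusp3, Dusp4, Dusp6, Dusp7, Dusp8, Dusp16, Spry1, Spry2 and Spry4. They were found as the array's probe sets annotated to 1 of these symbols and to no other, which gave 21 of the 45101 probe sets and 10 of the 18193 genes. The probe set with the highest mean log2 signal over the 8 arrays was taken as a gene's main one. The members were chosen by their lithium and control signals on these same arrays, so the differences given for them, with the p-values of the fit, are a description and do not test the choice. Both groups were optic nerves of C57BL/6 mice aged 35 to 45 days, kept for 3 days in organotypic culture with, by the study's methods, the retina attached. The lithium group (n = 4 samples) had 20 mM lithium chloride in the medium, and the control group (n = 4 samples) had saline. By the labels each sample pooled 6 nerves, whereas the study's methods give another number of nerves and the strain C57/BL10. Whether samples of a group were cultured apart or taken from different animals is not stated, so p-values here cover the spread among these samples alone, and that spread may be technical.

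MAP kinases are switched on when a threonine and a tyrosine in their activation loop are both phosphorylated, and dual-specificity phosphatases switch them off by removing both phosphates. Members of the family differ in the kinase they prefer (ERK, JNK or p38) and in whether they sit in the nucleus or the cytoplasm, and several are themselves switched on by the pathway they restrain. Sprouty proteins act further upstream, between growth factor receptors of the tyrosine kinase type and ERK, and are likewise induced by the signals they damp. In glia, fibroblast growth factors and epidermal growth factor signal through these receptors.

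RNA was measured on 1-colour Affymetrix arrays as MAS5 signals, which are linear intensities scaled to the same trimmed mean on every array. The median signal was 12.3 to 16.5 on the lithium arrays and 14.8 to 17.5 on the control arrays, with the lowest on lithium array 1. Lithium and control were compared with limma on the log2 scale over 45037 probe sets, and a gene was called at a Benjamini-Hochberg adjusted p under 0.05. Of all probe sets 2.33% were called. Over all genes, each read from its main probe set, 3.23% were called (1.18% higher and 2.05% lower in lithium), and in 15.4% the lithium and control arrays did not overlap (6.47% higher and 8.92% lower). Signals of different probe sets cannot be compared as levels, so lithium and control are compared within a probe set, or, for lists of cell markers, on signals summed over the same probe sets in both groups. Markers of astrocytes and oligodendrocytes, the main cells of this tissue, were measured on every array, and no gene of either list was called by limma (1 of 10 and 0 of 8 had an unadjusted p under 0.05). Being whole nerves, the samples do not tell fewer cells of a type from less RNA per cell.

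Of the 10 genes, Dusp8 rose, Dusp6 fell and 8 did not pass limma's adjusted p in the unpaired fit, against the 3.23% of all genes called. With replicate number blocked, neither Dusp8 (limma adjusted p = 0.0704) nor Dusp6 (0.0858) passed. Of all 45037 probe sets 124 passed with this block. An unadjusted p under 0.05 was found for 6 of the 10 genes in limma's unpaired fit, against 22% of all genes. In 4 the groups did not overlap, against 15.4% of all genes. Dusp8, Dusp16 and Dusp3 were above control on all lithium arrays, and Dusp6 was below. Since the genes were listed with this contrast known, nothing is read from these counts. The median log2 fold change was -0.011 over the 10 genes and -0.0028 over all genes, and the means of 5 genes were higher and those of 5 lower. By family, 5 of the 7 phosphatases had higher means in lithium (median 0.26), and the 3 Sprouty genes had lower ones (median -0.26).

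**Figure D1:**
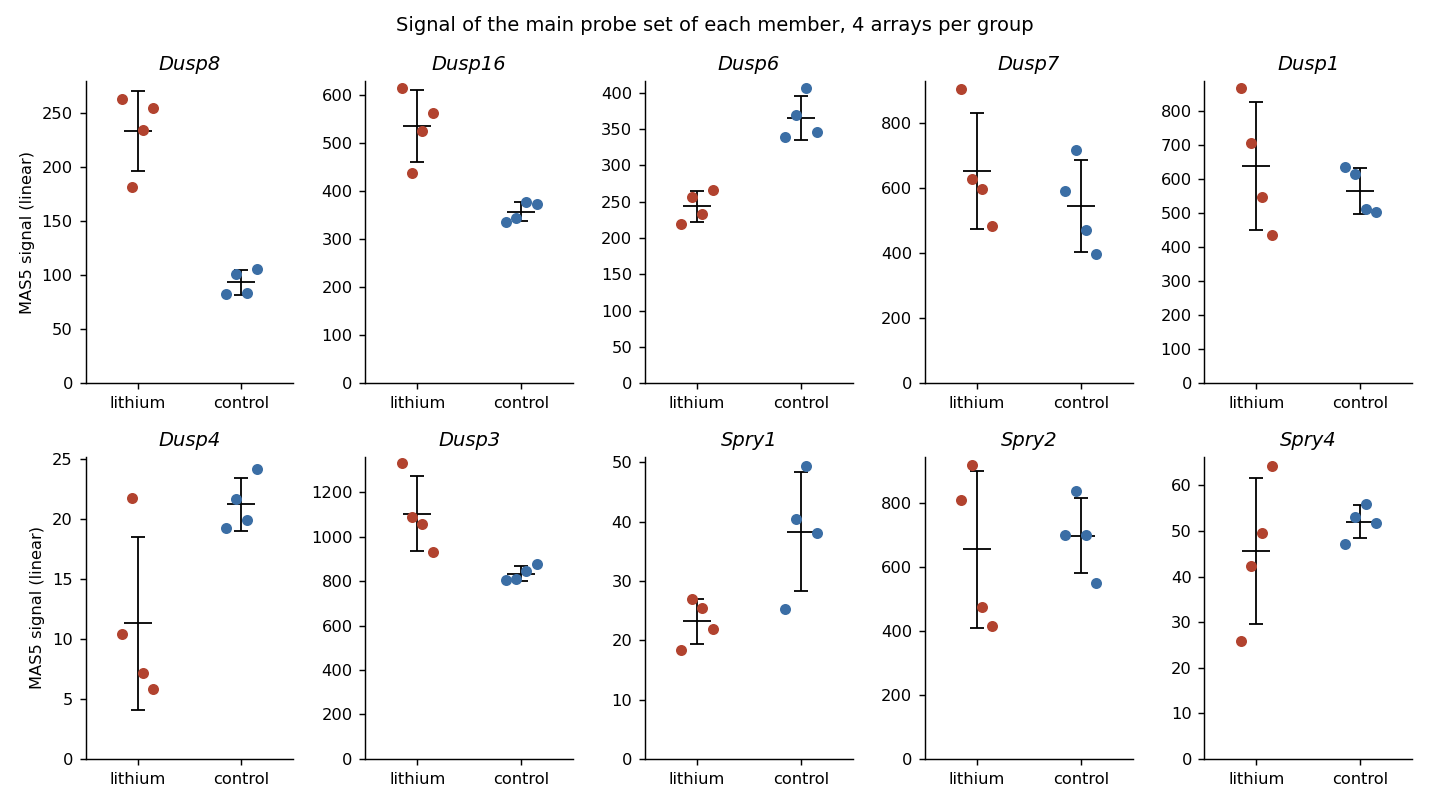
MAS5 signal (linear scale from 0) of the main probe set of each of the 10 genes on the 4 lithium arrays (red) and the 4 control arrays (blue), with a black bar at the mean and whiskers of 1 SD. The groups lie apart for Dusp8, Dusp16, Dusp6 and Dusp3 and overlap in the other 6 genes.

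The phosphatases that prefer JNK and p38 over ERK, Dusp8 and Dusp16, both had higher signals on every lithium array. Dusp8 (probe set 1428864_at) gave 263, 181, 234 and 254 on lithium arrays 1 to 4, against 82.8, 101, 83.1 and 106 on control arrays 1 to 4. The lowest lithium array thus lay well above the highest control array. Dusp8 averaged 233 ± 36.7 in lithium and 93.1 ± 11.9 in control nerves (SD, n = 4 each). This was a 2.49-fold rise (log2 fold change 1.32, standard error 0.15, 95% interval 0.97 to 1.67, limma adjusted p = 0.0162). It was the 1 member that also reached a 2-fold difference and a mean signal of 200 in lithium or control nerves, as 0.204% of all probe sets did. Its other 2 probe sets had log2 fold changes of 0.50 (limma adjusted p = 0.0602, groups apart) and 0.76 (limma adjusted p = 0.464, groups overlapping, mean signals of 8.82 in lithium and 5.23 in control). Averaged over its probe sets, the log2 fold change of Dusp8 was 0.86 (limma adjusted p = 0.0276). Blocking on replicate number gave Dusp8 an adjusted p of 0.0704, and without control array 3 it was 0.0525. Within arrays 1 and 2 the log2 fold change was 1.25, and within arrays 3 and 4 it was 1.38.

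Dusp16 (probe set 1418401_a_at), which encodes a phosphatase of JNK and p38, had signals of 615, 439, 525 and 563 on the lithium arrays, against 335, 345, 377 and 373 on the control arrays. The groups did not overlap, and lithium array 2 lay nearest to the controls. Its log2 fold change was 0.57 (standard error 0.11, 1.49-fold) with a limma adjusted p of 0.0552, just outside the threshold. Without lithium array 2 the log2 fold change was 0.67 and the adjusted p 0.0388, the 1 of 8 fits with an array left out that passed. Without each other array the adjusted p was 0.0973 to 0.139. The adjusted p ranged from 0.0205 to 0.322 over the 20 alternatives and was under 0.05 in 7 of them. A second probe set, with a mean of 34.7 in lithium and 17.7 in control nerves, had a log2 fold change of 0.94 with overlapping groups (limma adjusted p = 0.286).

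The start regions of the members were searched for 6 motifs taken from general knowledge, and the stretches around 1 of them are shown because they stand in Dusp8, the member that rose, and in Dusp1. This was the cAMP response element (CRE, letters TGACGTCA), which is bound by CREB-type factors. RefSeq windows of the GRCm38.p6 build, which run from 250 bases before to 50 bases after a start site, matched 8 of the 10 genes, and Dusp4 and Spry4 had none. The stretches of 30 bases around each CRE are printed 5′ to 3′ on the gene's own strand with the CRE in capitals. The CREs begin 107 and 63 bases before the Dusp8 start site and 143 bases before that of Dusp1.
Dusp8, chr7:142095373-142095402, minus strand: gcccgctccgcTGACGTCAcctgcccccga
Dusp8, chr7:142095329-142095358, minus strand: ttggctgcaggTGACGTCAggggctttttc
Dusp1, chr17:26508597-26508626, minus strand: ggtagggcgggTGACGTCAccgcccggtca
The start sites used for Dusp8, Dusp3, Dusp7 and Dusp16 lie inside the annotated spans of these genes, which begin further upstream. No windows were set at those upstream ends. Of all 32851 windows of this length 1.79% held a CRE on either strand (the motif reads the same on both), and the other 6 windows of the members held none. Of the other motifs searched on both strands, the E-box CACGTG (7.15% of windows) occurred once in Dusp1. AP-1 (TGANTCA, 7.81%), TCF/LEF (ATCAAAG, 3.73%), ETS (CCGGAAGT, 3.89%) and the CArG box (1.63%) occurred in none of the 8. The E-box and the CRE of Dusp1 shared no base. A match is only a description of the letters. The pair of CRE matches stands in a gene that rose and the single one in a gene that was not called.

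The phosphatases of the cytoplasm that prefer ERK were Dusp6, which was called, and Dusp7, which was not; the difference between them was not tested. Dusp6 (probe set 1415834_at), which is induced by growth factor signalling through ERK, had signals of 219, 256, 233 and 265 on lithium arrays 1 to 4, against 339, 369, 406 and 346 on control arrays 1 to 4. Every lithium array was below every control array. Dusp6 averaged 243 ± 21.4 in lithium and 365 ± 30.4 in control nerves (SD, n = 4 each). It fell by 0.59 on the log2 scale (standard error 0.09, 0.666 times the control signal, limma adjusted p = 0.0333), and it has no further probe set. The log2 fold change was -0.58 within arrays 1 and 2 and -0.59 within arrays 3 and 4, so its size was nearly the same in both. Its adjusted p was 0.0858 when replicate number was blocked and 0.153 after centring each array on its median. When 1 array was left out, Dusp6 passed without lithium array 4 (0.0482), and without each other array the adjusted p was 0.0608 to 0.0818, highest without control array 2.

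Dusp7 (probe set 1427416_x_at), a close relative of Dusp6, had signals of 904, 628, 597 and 484 on the lithium arrays, against 591, 718, 470 and 396 on the control arrays. The groups overlapped (log2 fold change 0.26, 95% interval -0.33 to 0.86, limma adjusted p = 0.668), an interval that holds both a rise and a fall. Its main probe set carries the suffix _x_at, which marks probes that may also bind other transcripts. A second probe set gave much the same picture with a log2 fold change of 0.24, and the third, with mean signals of 9.15 in lithium and 9.96 in control nerves, had one of -0.021.

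The inducible phosphatases of the nucleus, Dusp1 and Dusp4, were not called. Dusp1 (probe set 1448830_at), an immediate early gene whose product acts on p38, JNK and ERK, had signals of 866, 707, 545 and 435 on lithium arrays 1 to 4, against 634, 613, 512 and 504 on control arrays 1 to 4. Lithium arrays 1 and 2 were above all controls, lithium array 4 was below all of them, and the log2 fold change was 0.13 (95% interval -0.39 to 0.66, limma adjusted p = 0.823). Within arrays 1 and 2 it was 0.33 and within arrays 3 and 4 it was -0.060. Without lithium array 1 it was -0.029.

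Dusp4 (probe set 1428834_at), which acts on ERK and JNK, was dim, with signals of 10.4, 21.7, 7.18 and 5.84 in lithium, against 19.2, 21.6, 19.9 and 24.2 in control nerves. Of the lithium arrays 3 lay below every control array, and lithium array 2 lay among the controls. The log2 fold change was -1.10 (standard error 0.40, 95% interval -2.04 to -0.16, limma adjusted p = 0.208). Without lithium array 2 it was -1.48 with an adjusted p of 0.0481, and this was the 1 of 8 fits with an array left out that passed. Without each other array the adjusted p was 0.301 to 0.364. All 8 signals were above their own array's maximum over 27 poly-A control probe sets, which was 2.13 to 5.64 across the arrays.

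Dusp3 (probe set 1434472_at), a small atypical member that lacks the MAP kinase-binding domain of the others and acts on ERK and JNK, had signals of 1334, 1090, 1058 and 930 on the lithium arrays, against 806, 808, 847 and 877 on the control arrays. The groups did not overlap, but the gap between the lowest lithium and the highest control array was small beside the spread of the lithium arrays. The log2 fold change was 0.39 (standard error 0.11, 1.31-fold, limma adjusted p = 0.131). It was 0.58 in arrays 1 and 2 alone and 0.20 in arrays 3 and 4 alone. The other 2 probe sets of Dusp3 had log2 fold changes of 0.39 and -0.20, so that they differed in sign, and the groups overlapped in both (limma adjusted p = 0.410 and 0.674).

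The Sprouty genes were lower on average in lithium, and none was called. Spry1 (probe set 1415874_at) had signals of 18.3, 26.9, 25.5 and 22.0 on the lithium arrays, against 25.2, 40.5, 49.4 and 38.1 on the control arrays. Control array 1 lay among the lithium arrays and the other 3 lay above them. The log2 fold change was -0.70 (standard error 0.23, 95% interval -1.23 to -0.16, limma adjusted p = 0.167).

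Spry2 (probe set 1436584_at) had signals of 810, 920, 476 and 417 in lithium, against 702, 838, 701 and 552 in control nerves. On lithium arrays 1 and 2 it was above, and on arrays 3 and 4 below, the control array of the same number. The log2 fold change was -0.16 (95% interval -0.84 to 0.53, limma adjusted p = 0.847). It was 0.17 in arrays 1 and 2 alone and -0.48 in arrays 3 and 4 alone. A second Spry2 probe set lay under the poly-A control signals on 3 of 4 lithium and 3 of 4 control arrays and gives no level.

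Spry4 had 4 probe sets that did not move together. The main one (1445669_at) had signals of 25.8, 42.4, 49.7 and 64.4 in lithium, against 47.2, 53.1, 55.9 and 51.9 in control nerves (log2 fold change -0.26, 95% interval -0.89 to 0.37, limma adjusted p = 0.681). A second probe set, with overlapping groups, had a log2 fold change of 0.021. The 2 others, with log2 fold changes of -1.28 and 0.83, had mean signals between 0.626 and 4.92, at or near those of the poly-A controls, and no level is given from them.

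**Figure D2:**
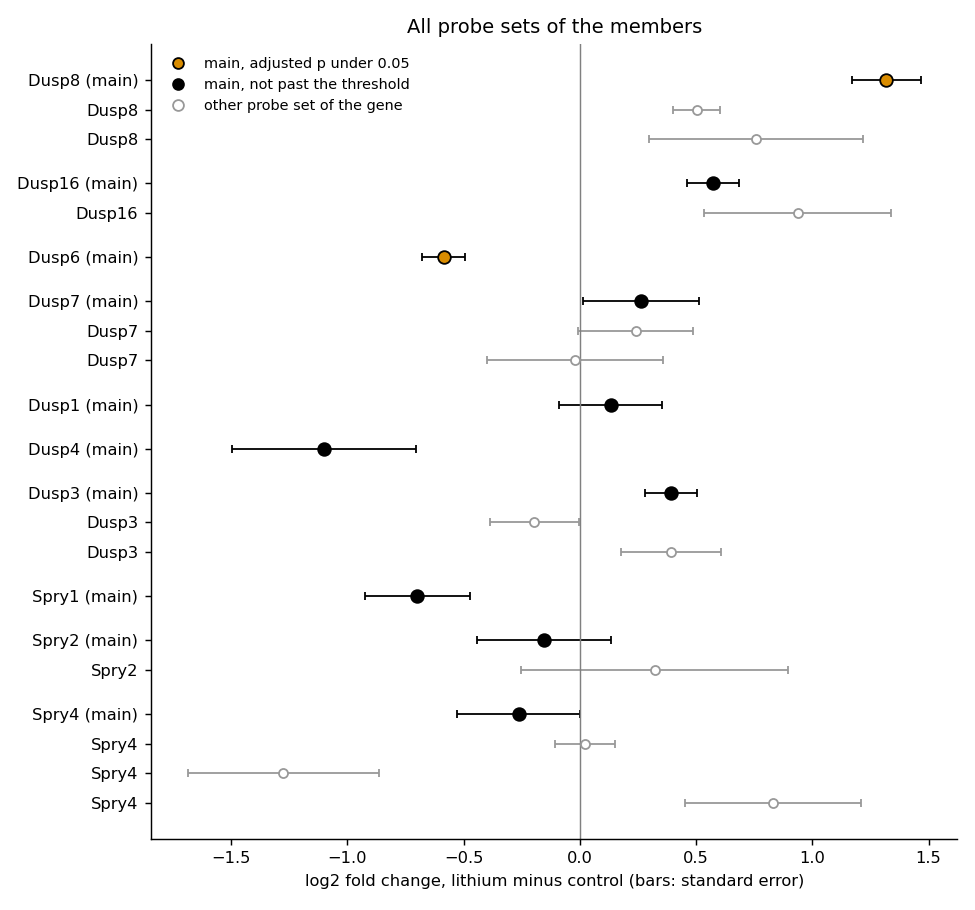
Difference in mean log2 signal between lithium and control arrays (4 of each) for all 21 probe sets of the 10 genes, with whiskers of 1 standard error, filled points for main probe sets, orange where limma's adjusted p was under 0.05, and open points for the others. Main probe sets run from -1.10 for Dusp4 to 1.32 for Dusp8, and the probe sets of Dusp3, Dusp7, Spry2 and Spry4 lie on both sides of 0.

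Within each group the signals of some members split by replicate number, which the labels do not explain. In Dusp1, Dusp7 and Spry2 arrays 1 and 2 were above arrays 3 and 4 among the lithium arrays and among the control arrays, a split that 10.9% of all genes showed in this direction and 16% in the other. Among the Spry2 controls the margin was very small, with 702 on control array 1 and 701 on control array 3. For Dusp1 the mean of arrays 1 and 2 over that of arrays 3 and 4 was 1.61-fold in lithium and 1.23-fold in control nerves. For Dusp7 it was 1.40-fold in lithium and 1.51-fold in control nerves, and for Spry2 1.94-fold in lithium and 1.23-fold in control nerves. In these 3 genes the split was larger on the log2 scale than the difference between lithium and control. Dusp8, Dusp6 and Dusp16 did not split in this way, with ratios of 0.894 to 0.956 in lithium and 0.907 to 0.977 in control nerves. A term for arrays 1 and 2 against 3 and 4 gave adjusted p-values of 0.0134 for Dusp8, 0.0241 for Dusp6 and 0.0421 for Dusp16 in limma, and no other member passed. Over all 45037 probe sets this term gave 2834 calls, against 1050 without it.

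The same split was seen in Dusp10, a JNK and p38 phosphatase of the same family outside the member list. It had signals of 1144, 982, 525 and 388 on lithium arrays 1 to 4, against 393, 481, 291 and 223 on control arrays 1 to 4. Each lithium array was above the control array of the same number, although lithium array 4 lay among the controls. The log2 fold change was 1.06 with a large standard error of 0.41 (limma adjusted p = 0.244), and it was 1.29 within arrays 1 and 2 and 0.83 within arrays 3 and 4. Its adjusted p was 0.0813 when blocked by replicate number and 0.0284, past the threshold, with a term for arrays 1 and 2 against 3 and 4. With that term 2834 of all probe sets passed, against 1050 without it.

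**Figure D3:**
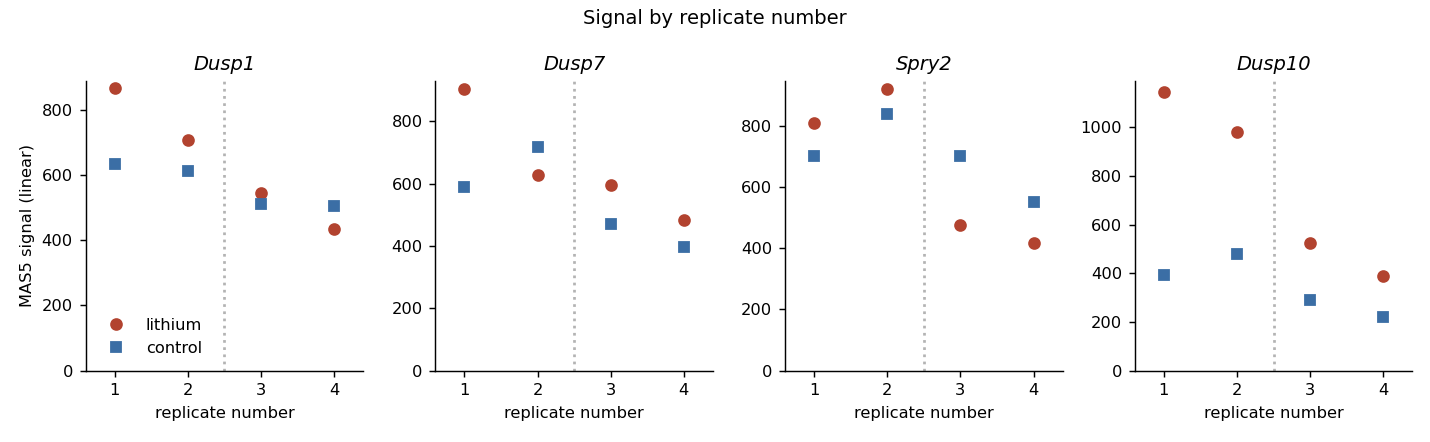
MAS5 signal (linear scale from 0) by replicate number for Dusp1, Dusp7, Spry2 and Dusp10, with lithium arrays as red circles and control arrays as blue squares, and a dotted line between numbers 2 and 3. In all 4 genes both arrays left of the line are above both arrays right of it within each group, and in Dusp10 each lithium array is also above its control. Among the Spry2 controls, arrays 1 (702) and 3 (701) are nearly level.

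The rest of both families and of the pathway was read from 9 lists drawn up from general knowledge, which held 133 genes, of which 121 were measured. Of these 2 rose, 6 fell and 113 did not pass limma's adjusted p, which makes 6.61% called against 3.23% of all genes. An unadjusted p under 0.05 was found for 36 of the 121, against 22% of all genes. The median log2 fold change was -0.089, against -0.0028 over all genes. With replicate number blocked none passed, where 124 of 45037 probe sets did (limma's unadjusted p was under 0.05 for 9597). Without control array 3 or control array 4 none passed either, where 169 and 216 of all probe sets did. Earlier results of these data were known when the lists were drawn up, so nothing is read from these counts.

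Among the relatives of the members no gene was called in the unpaired fit, against 3.23% of all genes, and nothing is read from this count. Some passed under alternatives, among them Dusp10, Dusp18, Spred1 and Errfi1. The term for arrays 1 and 2 against 3 and 4 gave 2834 calls over all probe sets, against 1050 in the unpaired fit. Among the atypical phosphatases, 1 gene other than Dusp18 passed with a level of 200 required before the test. Without control array 2, 1 other than Dusp18 also passed. Against 22% of all genes, 1 of the 4 other MAP kinase phosphatases of the list (Dusp2, Dusp5, Dusp9 and Dusp10) had an unadjusted p under 0.05 in limma's fit. Of 15 atypical phosphatases 4 had. Dusp18, an atypical phosphatase, had the lowest adjusted p of these (0.0748), with 83.8, 71.3, 63.5 and 53.7 in lithium, against 36.3, 49.5, 31.3 and 31.6 in control nerves. These groups did not overlap (log2 fold change 0.88). Dusp18 passed with the term for arrays 1 and 2 against 3 and 4 (0.0185), with 16 added to the signal (0.0478) and as the mean of its probe sets (0.0445), where its log2 fold change was 1.78. Of the 4 other Sprouty and Spred genes 2 had an unadjusted p under 0.05, against the same 22% of all genes. Spred1, which blocks the activation of Raf, had signals of 748, 749, 683 and 730 in lithium, against 885, 899, 800.1 and 903 in control nerves, groups that were apart by a small margin (log2 fold change -0.26, limma adjusted p = 0.0959, and 0.048 after quantile normalization). Of 13 other brakes, among them the Ras inhibitor Nf1 (limma adjusted p = 0.308), none was called, against the same 3.23% of all genes. Of these brakes 0 had an unadjusted p under 0.05, against 22% of all genes. Errfi1, another of the brakes, passed with the term for arrays 1 and 2 against 3 and 4 (limma adjusted p = 0.0325). It was named after its values were seen, and in the unpaired fit its limma adjusted p was 0.398.

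Of 17 genes known as transcriptional output of ERK, 2 fell, none rose and 15 did not pass, against 2.05% of all genes called lower and 1.18% called higher. An unadjusted p under 0.05 was found for 8 of them, against 22% of all genes, and their median log2 fold change was -0.35, against -0.0028. Etv5, an ETS factor that like Dusp6 responds to fibroblast growth factors, had signals of 152, 172, 171 and 138 in lithium, against 270, 285, 262 and 246 in control nerves. It fell by 0.75 on the log2 scale (limma adjusted p = 0.0199), and the groups did not overlap. Egr2, a zinc-finger factor, had signals of 76.4, 170.3, 86.8 and 108 in lithium, against 312, 301, 303 and 258 in control nerves (log2 fold change -1.48, limma adjusted p = 0.0376). The groups did not overlap in 5 of the 17 genes, against 15.4% of all genes. Of these 5, Etv5, Egr2 and Etv4 were lower and Fosb and Fosl1 higher in lithium. Fosb, a partner in AP-1 dimers, had signals of 39.1, 98.8, 38.5 and 41.0 in lithium, against 12.7, 17.4, 19.5 and 11.9 in control nerves. Its log2 fold change of 1.72 was the largest in size of the list, with a limma adjusted p of 0.0600 and of 0.0494 with the term for arrays 1 and 2 against 3 and 4. That term raised the calls over all probe sets from 1050 to 2834. Fosl1, of the same family as Fosb, had a log2 fold change of 0.78 (limma adjusted p = 0.124). Etv4, a relative of Etv5, had one of -0.69 (limma adjusted p = 0.0814). Egr1 and Fos, both immediate early genes, had log2 fold changes of -0.072 and 0.28 with overlapping groups. Etv4, Fosb, Fosl1, Egr1 and Fos were named after their values were seen.

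Against 1.18% of all genes called higher, 1 of 15 measured genes in the relay from Ras to ERK rose and none fell. This was Ksr1, a scaffold that holds Raf, MEK and ERK together, with signals of 131, 110, 122 and 112 in lithium, against 77.1, 72.4, 84.5 and 77.9 in control nerves (log2 fold change 0.61, limma adjusted p = 0.0226). Its main probe set carries the suffix _s_at, which marks probes shared by several transcripts. With probe sets ending in _x_at or _s_at left out, the log2 fold change was 0.39 and the adjusted p 0.577. Among 15 kinases of the p38 and JNK branches, against the same 1.18% of all genes, 1 rose and none fell. This was Map3k11, a kinase that activates the JNK branch, with signals of 104, 112, 124 and 109 in lithium, against 78.5, 71.2, 75.4 and 75.8 in control nerves (log2 fold change 0.57, limma adjusted p = 0.0201). In both genes the groups did not overlap.

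Receptor tyrosine kinases and their ligands had medians below that of all genes (-0.0028). Of 19 receptors 2 fell, none rose and 17 did not pass, against 2.05% of all genes called lower. An unadjusted p under 0.05 was found for 9 of them, against 22% of all genes, and their median log2 fold change was -0.52. Egfr, the receptor of epidermal growth factor, had signals of 77.5, 89.3, 104 and 112 in lithium, against 178, 187, 189 and 205 in control nerves (log2 fold change -0.998, limma adjusted p = 0.0201). As the mean of its probe sets Egfr had a log2 fold change of -0.31 and an adjusted p of 0.520. Pdgfrb, a receptor of platelet-derived growth factors on pericytes and fibroblasts, had signals of 26.8, 37.7, 43.2 and 74.5 in lithium, against 164, 126, 211 and 285 in control nerves, and fell by 2.14 on the log2 scale (limma adjusted p = 0.0401). Of 19 ligands 2 fell, none rose and 17 did not pass, and 7 had an unadjusted p under 0.05, against 2.05% called lower and 22% at that p over all genes (median of the ligands -0.38). Ereg, a ligand of the Egfr family, averaged 107 ± 22.9 in lithium and 230 ± 28.5 in control nerves (SD, n = 4 each; log2 fold change -1.12, limma adjusted p = 0.0365), and Pdgfb, a ligand of Pdgfrb, fell by 0.58 on the log2 scale (limma adjusted p = 0.0375). All 8 of these called genes of the pathway missed the threshold with the block (limma adjusted p = 0.055 to 0.0896). With the block 124 of 45037 probe sets passed. When 1 array was left out, Etv5, Map3k11 and Egfr passed in 4 of 8 fits, Ksr1 in 3, Ereg in 2, Egr2 and Pdgfrb in 1 and Pdgfb in 0. After centring each array on its median Etv5 (0.106), Ksr1 (0.0993), Map3k11 (0.0789) and Pdgfb (0.173) did not pass. As means of their probe sets Etv5 (0.236) and Pdgfb (0.0794) did not pass, with log2 fold changes of -0.54 and -0.28, and with trended and robust variances Pdgfb (0.105) did not.

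**Figure D4:**
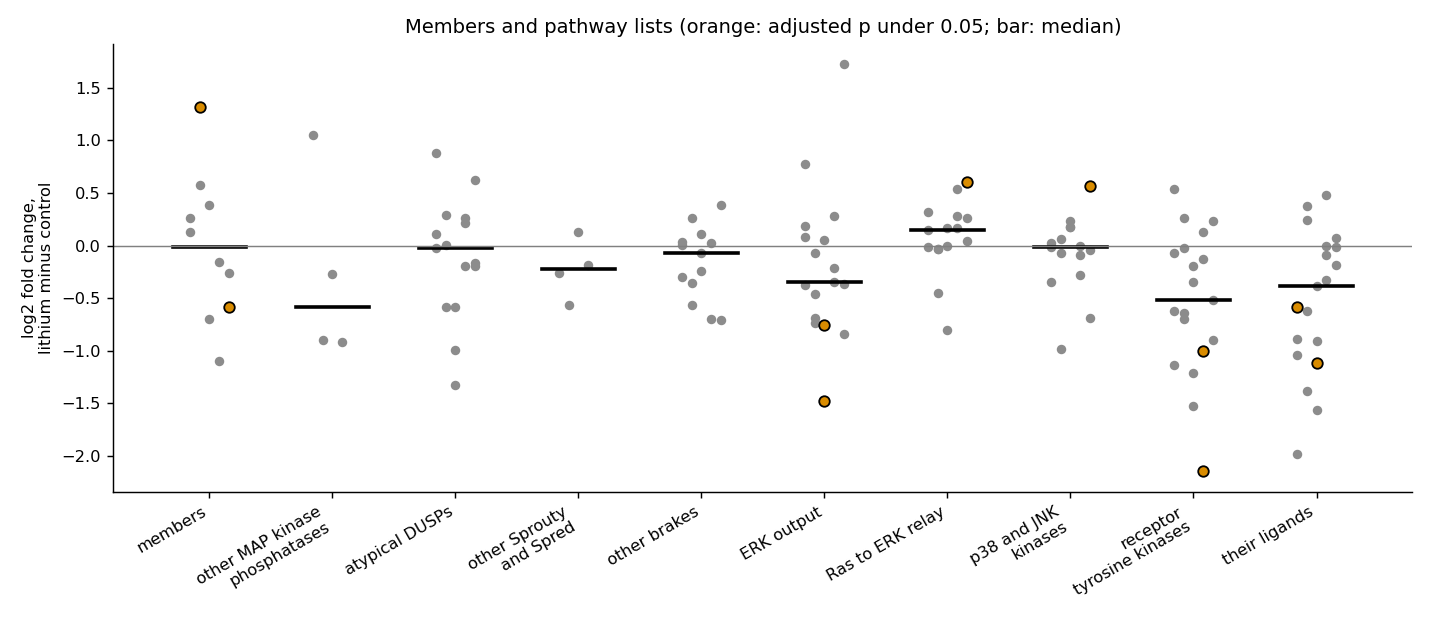
Difference in mean log2 signal between lithium and control arrays (4 of each) for the main probe set of each gene in the member list and the 9 pathway lists, with a grey point per gene, orange where limma's adjusted p was under 0.05, and a black bar at the median. Called genes lie above 0 in the relay and the p38 and JNK lists, below 0 in the output, receptor and ligand lists, and on both sides among the members.

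Some markers of other cells were called, all of them lower in lithium. Of 8 markers of meningeal and perivascular fibroblasts 2 fell by limma's adjusted p and all 8 had lower means (median log2 fold change -1.56). Their summed signal was 834 to 2340 in lithium, against 3429 to 5464 in control nerves. Of 7 endothelial markers 1 fell and 6 had lower means (median -0.29), with a sum of 144 to 323 in lithium, against 390 to 626 in control nerves. Of 7 markers of pericytes and smooth muscle 1 fell, which was Pdgfrb itself, and 6 had lower means (median -0.86). Their sums of 965 to 1969 in lithium and 1081 to 1802 in control nerves overlapped. In limma's fit an unadjusted p under 0.05 was found for 6 of 8 fibroblast and 3 of 7 endothelial markers. It was also found for 3 of 7 markers of pericytes and smooth muscle. The lithium and control arrays did not overlap in 5, 3 and 2 markers of these lists. Over all genes these shares were 22% and 15.4%, and 2.05% were called lower. No marker of these 3 lists lay under the poly-A controls on all arrays. None of 7 retinal, 6 oligodendrocyte precursor and 9 microglial markers was called by limma, and an unadjusted p under 0.05 was found for 1, 2 and 1 of them. Means were higher in lithium for 5 of the 7 retinal markers (median 0.24), although their sum was 117 to 158 in lithium, against 160.0 to 244 in control nerves, and 1 of them, Pde6b of photoreceptors, lay under the poly-A controls on all arrays. Means were higher for 4 of the 6 precursor markers (median 0.088), with sums of 1440.3 to 1624 in lithium, against 1494 to 1862 in control nerves. Means were higher for 2 of the 9 microglial markers (median -0.25), with sums of 2473 to 3306 in lithium, against 2786 to 3872 in control nerves. Sums also overlapped for astrocytes (7590.4 to 8906 in lithium, 8234 to 8787 in control nerves) and oligodendrocytes (10923 to 14293 in lithium, 10847 to 11830.0 in control nerves). The part of these cells in the values of Dusp6, Spry1, the receptors and the ligands was not tested.

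The genes whose signal over the 8 arrays was most like that of the 2 called members were taken from 5430 genes whose lithium or control mean reached 200, by Pearson's r over 8 arrays, as a description with the difference between the groups included. For Dusp8 they were Sbf1 (r = 0.980), Abhd6 (r = 0.979) and Mink1 (r = 0.977). Sbf1 had signals of 331, 218, 316 and 333 in lithium, against 118, 125, 141 and 151 in control nerves, with its lowest lithium value on array 2 as in Dusp8. For Dusp6 they were Ptx3 (r = 0.977), Frmd6 (r = 0.975) and Usp46 (r = 0.971). Ptx3, a secreted pattern-recognition protein, had signals of 668, 715, 711 and 749 in lithium, against 814, 912, 958 and 831 in control nerves, and so followed the order of Dusp6 over a narrower range.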

How the data were processed

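The authors scanned 8 Affymetrix Mouse Genome arrays and deposited MAS5 signals made with GeneSpring GX after GeneChip Operating Software. These deposited values are linear intensities, 1 per probe set and array, and without the highest and lowest 2% their mean was 100 on each array. The methods also name a baseline transformation, which these values do not show. Detection calls were not used here. The 10 genes, the gene lists and the alternatives were chosen with earlier results of these data known.

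Of 45101 probe sets, 64 Affymetrix controls were left out. Signals were floored at 1 (14.5% of values) and log2 transformed. The difference between lithium and control was estimated in R 4.3.3 by limma 3.58.1 (lmFit, then eBayes) with no block and with Benjamini-Hochberg adjustment over 45037 probe sets. Group means and SDs refer to the linear signal. Log2 fold changes compare mean log2 signals, and their 95% intervals come from the moderated fit. Genes were named from GEO's platform annotation, which pairs 34945 tested probe sets with 1 symbol, 932 with several and 9160 with none. All members were described. Of each pathway list, called genes were named (up to 4, lowest adjusted p first), or otherwise the gene with the lowest adjusted p. Errfi1, Etv4, Fosb, Fosl1, Egr1 and Fos were named outside this rule, after their values were seen. Likeness was ranked for called members.

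Both groups carry the numbers 1 to 4. Neither labels nor methods say what a number marks, but deviations from the group means correlated in each of the 4 same-numbered pairs (0.130 to 0.197), which meets the limit of 0.1 set for calling the numbers pairs. All values given without mention of a block are from the unpaired fit, and the fit blocked by number is an alternative. Arrays 1 and 2 of opposite groups, and likewise 3 and 4, correlated too (0.0706 to 0.132, mean 0.112), although their numbers differ. Some of these also passed 0.1, so the limit does not single out arrays of the same number.

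Alternatives were other scalings, offsets, filters, probe set choices, variance models and array weights, the block, a term for arrays 1 and 2 against 3 and 4, fits within these, and each array left out in turn. On simulated data with 45037 probe sets, a log2 shift of 3 was found in 50 of 50 in each direction. One of 1.5 was found in 42 of 50 and one of -1.5 in 45 of 50, with 17 of 204 calls wrong. The shifted probe sets were drawn from those with a mean signal above 200, and the noise was independent between arrays. The simulation therefore does not cover dim members, smaller shifts or deviations that arrays share. The number of arrays limits the precision. Plots were made in Python 3.11.15 using matplotlib 3.10.9.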

Additional observations from a re-analysis of the deposited data

Results flagged for a closer look

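The second Spry2 probe set, 1421656_at, gave a signal of 12.3 on lithium array 2, against 2.36 to 3.08 on the other lithium arrays, a gap larger than Dixon's limit for 4 arrays allows. It was the only such value among 42 groups of 4 arrays (21 probe sets in each of both groups), where chance flags about 1 group in 20. The main Spry2 probe set was also highest on lithium array 2 (920), next to 810 on lithium array 1.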

How the results depend on the processing

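The number of arrays limits what these data show, and of the 21 probe sets of the members 17, all 10 main ones included, lay above the poly-A control signals on all 8 arrays. Against 2 called members, 8 called genes of the other pathway lists and 1050 called probe sets in all, median centring gave 1 member and 5 pathway genes. Quantile normalization gave 13 pathway genes. Of all probe sets 1735 were called with 16 added to the signal, and 685 with a level of 200 required before the test, which left fewer to test. The replicate block gave 0 members, 0 pathway genes and 124 probe sets, and the term for arrays 1 and 2 against 3 and 4 gave 19 pathway genes and 2834 probe sets. Within arrays 1 and 2, and within arrays 3 and 4, limma called 0 of each, where 8285 and 7787 probe sets had an unadjusted p under 0.05, with 2 arrays a group. With 1 array left out, 0 to 3 members, 0 to 7 pathway genes and 169 to 617 probe sets were called. Of 197 member values under these alternatives, 174 stayed on their side of the threshold, 15 lost and 8 gained it, and no called member changed sign. Below the threshold the sign of Dusp1 changed under 2, of Spry2 under 3 and of Spry4 under 1 of the alternatives. The causes of these changes were not tested.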
